A study of Macaca fascicularis with 10 samples.

Results

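Haploid embryonic stem cells of the cynomolgus monkey (Macaca fascicularis) that come from parthenogenetic embryos were compared with diploid embryonic stem cells from fertilised embryos. The parthenogenetic haploid cells (PG-haESC) gave 5 arrays: line MPH1 at passages 7, 8, 9 and 11, and line MPH2 at passage 4. For the fertilised cells, sperm had been injected into the egg (ICSI, hence ICSI ESC), and there were 3 arrays, 1 each of lines MES1 (passage 12), MES2 (passage 4) and MES3 (passage 4). These 8 of the 10 arrays of the series were chosen by their labels alone. The other 2 arrays, of female somatic fibroblasts at passages 14 and 15, entered the fit as a separate group to help estimate the spread and were not compared. All stem cells were kept on feeder cells with Y27635 and Thiazovivin and were taken up with trypsin before RNA extraction. The 4 MPH1 arrays carry 2 different codes, M1 and M2, under 1 line name, and nothing ties arrays of a line to separate cultures, so the p-values reflect only how these samples vary, which may in part be technical. The haploid side thus rests on 2 lines and the fertilised side on 3.

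A haploid parthenogenetic cell holds a single chromosome set, and that set comes from the egg. Imprinted genes are read from only 1 parental allele, so genes active on the paternal allele have no active copy in such a cell. In diploid female cells of placental mammals most genes of one X chromosome are silenced, whereas a haploid cell keeps its only X active. Haploid cultures tend to become diploid with time. The arrays cannot show how many cells of each were haploid when RNA was taken.

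Across 11676 genes the haploid and the fertilised cells differed at 67 (0.574%), 59 higher (0.505%) and 8 lower (0.0685%) in PG-haESCs. For each gene the probe set with the highest mean signal was used. It was tested with limma on log2 signal with cell line as a block, and called where the Benjamini-Hochberg adjusted p over all probe sets was under 0.05. Of 34139 probe sets 154 were called (0.451%), 125 higher (0.366%) and 29 lower (0.0849%). On autosomes, 20 of 10196 genes were called (0.196%), 12 higher (0.118%) and 8 lower (0.0785%) in PG-haESCs. On the X chromosome, 36 of 380 were called (9.47%), all higher, and none was lower (0%). The remaining 11 called genes had no chromosome in the annotation used here, and all 11 were higher. The autosomal genes were otherwise balanced, with a median log2 change of -0.03 and 388 higher (3.81%) against 355 lower (3.48%) at an unadjusted p under 0.05. Log2 changes are PG-haESC minus ICSI ESC throughout, with their standard error. The block gives the 4 arrays of MPH1 less weight each, so a change need not equal the difference of plain array means.

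The number of calls depended on how lines and single arrays were treated. With the arrays of each line averaged first, SNRPN was the 1 autosomal gene left and no X-linked gene was called. The autosomal number was 2, 4 or 90 without the MES3, MES2 or MES1 array, and 6, 5, 13 or 14 without the MPH1 array of passage 7, 8, 9 or 11. It was 37 without the MPH2 array and 12 without either fibroblast array. The MES1 array stood apart in 2 respects. Its mean log2 level of 15 fibroblast and feeder genes was 12.12, close to 12.69 and 12.71 on the fibroblast arrays, against 8.92 to 10.98 on the other stem cell arrays. It also had, with the MPH1 array of passage 11, the highest signals of the BioB spike-in control (2213 and 2726, against 935 to 1521 on the other stem cell arrays). Without these 2 arrays 102 autosomal genes were called, which included 17 of the 20, and without MES1 alone the called genes included 19 of the 20, all but ZNF385B. The arrays labelled fibroblast also carried genes of keratinocytes and the cornified envelope, with all 15 of that list above the array median and mean log2 levels of 13.07 and 13.09, against 5.42 to 6.53 on the stem cell arrays. LORICRIN, a protein of that envelope, reached 41861 and 43154 there. High signal on these arrays thus does not mark fibroblasts or feeder cells alone. The fibroblast list itself had a median log2 change of -0.03, none of its 15 genes was called, and its part in other differences was not tested. Core pluripotency genes marked all 8 arrays as stem cells, with a mean log2 level of 10.59 to 11.34 against 5.85 and 5.99 on the fibroblast arrays. In RNA of whole cultures, fewer cells of a type and less RNA per cell cannot be told apart, and since each array was scaled to a common mean, a change of all genes together would not be seen.

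SNRPN was the gene with the largest difference. It encodes SmN, a core protein of spliceosomal snRNPs, and lies in an imprinted domain that in mammals is transcribed from the paternal allele. Its signal was 161, 277, 680 and 591 on the MPH1 arrays (in the order of passages 7, 8, 9 and 11, as below), 443 on the MPH2 array and 18588, 20957 and 26541 on the MES1, MES2 and MES3 arrays. Every haploid array lay below both fibroblast arrays as well, which gave 1682 and 1459. The fall was 56.0-fold (log2 change -5.81 ± 0.49, adjusted p = 0.0013), of like size in MPH1 (-5.90) and MPH2 (-5.62). Its other tested probe set fell too (-6.49 ± 1.13, adjusted p = 0.031), and SNRPN kept its call under all 23 other settings tried. SNRPB, the paralogue that encodes the Sm proteins of most tissues, differed by -0.10 ± 0.14 (adjusted p = 0.98). None of the 12 measured genes for Sm and related snRNP proteins was called (median 0.04), the smallest p being that of LSM4 at 0.26 ± 0.22 (adjusted p = 0.94).

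None of the measured genes next to SNRPN on chromosome 7 was called. UBE3A and NDN, measured neighbours named here after their values were seen, differed by -0.02 ± 0.15 and -0.01 ± 0.20. NDN, imprinted and paternally expressed in other mammals, gave 7879, 9629, 7610 and 5600 in MPH1, 7291 in MPH2 and 6750, 8058 and 7778 in ICSI ESCs, so that all groups overlapped at a high level. MAGEL2, next to NDN and imprinted likewise, gave 53.1, 23.5, 59.7 and 152 in MPH1, 42.5 in MPH2 and 265, 239 and 280 in ICSI ESCs. All haploid arrays were below all ICSI ESC arrays for MAGEL2, but the log2 change of -2.31 ± 0.65 was not past the test (adjusted p = 0.21). Over the 12 measured paternally expressed imprinted genes, SNRPN alone was called (all genes tested 0.574%), 9 had a change below 0 and the median was -0.25. Among them INPP5F, dim in ICSI ESCs, had overlapping groups (adjusted p = 0.86), as had PLAGL1 (-1.795 ± 1.194, adjusted p = 0.89).

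Maternally expressed imprinted genes had a median log2 change of 0.02 over 17 measured genes, and none was called. ZNF597, a zinc finger gene, gave 174, 248, 336 and 225 in MPH1, 324 in MPH2 and 108, 102 and 118 in ICSI ESCs. Its groups did not overlap, and its change of 1.27 ± 0.35 was not past the test (adjusted p = 0.21). PHLDA2, a brake on placental growth, had -0.92 ± 0.35 (adjusted p = 0.51). H19, a long noncoding RNA, reached 14625 in MPH2 against 645 to 3432 in MPH1 and 429 to 1862 in ICSI ESCs (1.89 ± 0.91, adjusted p = 0.72), so the haploid lines stood apart from each other.

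The second group of falling genes belonged to the integrated stress response. In this pathway, kinases that sense amino acid shortage or unfolded protein raise translation of the transcription factor ATF4, which then switches on DDIT3 (CHOP), TRIB3, CHAC1, DDIT4 and enzymes of amino acid supply. Of 29 measured genes on the list of this response, 3 were called and all 3 were lower (autosomal background called lower 0.0785%). In 8 the haploid arrays lay entirely below the ICSI ESC arrays (autosomal background 3.34%), and in none entirely above. The list's median log2 change was -0.22, and 24 of the 29 had a change below 0. The list was written with the falls of DDIT3, DDIT4 and CHAC1 already known, so its count is no independent evidence of a direction.

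DDIT3, a transcription factor of stress-induced death, gave 1018, 1132, 956 and 1168 in MPH1, 1017 in MPH2 and 2363, 2993 and 3023 in ICSI ESCs. The haploid arrays were closely grouped and 2.64-fold lower (-1.40 ± 0.17, adjusted p = 0.0069). DDIT4, an inhibitor of the growth kinase mTORC1, gave 1941, 3187, 3461 and 2354 in MPH1, 4209 in MPH2 and 9243, 9009 and 8977 in ICSI ESCs, a fall of 1.56 ± 0.25 on the log2 scale (adjusted p = 0.024). CHAC1, which breaks down glutathione, gave 730, 962, 615 and 733 in MPH1, 601 in MPH2 and 1594, 2085 and 1340 in ICSI ESCs, a fall of 1.23 ± 0.24 (adjusted p = 0.048). The haploid arrays of all 3 genes lay apart from the ICSI ESC arrays, and both haploid lines went the same way. As the 3 were called on these same arrays, that is no independent evidence. DDIT3 lost its call under 4 of the 23 other settings, DDIT4 under 7 and CHAC1 under 15. Without the arrays of highest spike-in signal DDIT3 (-1.55, adjusted p = 0.0059) and DDIT4 (-1.49, adjusted p = 0.038) were called and CHAC1 was not (-1.26, adjusted p = 0.066). Without the MES3 array none of the 3 was (adjusted p = 0.061, 0.10 and 0.10).

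Upstream and feedback members had lower values without passing the test. ATF4 mRNA was abundant, at 14195, 17145, 15255 and 16471 in MPH1, 13258 in MPH2 and 19772, 17769 and 20126 in ICSI ESCs, a log2 change of -0.37 ± 0.14 (adjusted p = 0.54). TRIB3, a pseudokinase that dampens ATF4, had -1.76 ± 0.51 (adjusted p = 0.24) and the stress factor ATF3 -0.98 ± 0.31 (adjusted p = 0.31). For ATF3, 1 of 3 tested probe sets had a change above 0, and the change ran from -1.25 to -0.17 under the other settings. JDP2 (-0.81 ± 0.27, adjusted p = 0.38) and the dim hormone gene FGF21 (-1.14 ± 0.55, adjusted p = 0.72), both singled out after their values were seen, also had haploid arrays entirely below. The amino acid enzymes named next had smaller fitted changes, but for ASNS and PHGDH the 2 haploid lines differed. The asparagine synthetase gene ASNS had -0.18 ± 0.24 (adjusted p = 0.98), and PHGDH, SHMT2 and BCAT1, named after their values were seen, had -0.27 ± 0.24, -0.22 ± 0.27 and -0.14 ± 0.19. PHGDH starts serine synthesis, SHMT2 feeds mitochondrial folate and BCAT1 handles branched-chain amino acids. ASNS had -0.0047 in MPH1 and -0.56 in MPH2, and PHGDH -0.0044 in MPH1 and -0.83 in MPH2. The enzyme gene PCK2 of the same list, also named after its values were seen, had -0.56 ± 0.26 (adjusted p = 0.68). Averaged over the list, log2 levels were 10.05, 10.15, 10.18 and 10.02 in MPH1, 9.89 in MPH2 and 10.52, 10.51 and 10.46 in ICSI ESCs, with no overlap. The average includes DDIT3, DDIT4 and CHAC1, whose falls were known when the list was written. Neither it nor the list's median is therefore independent evidence. The list's median was -0.41 with arrays averaged per line and -0.35 without the MES1 array.

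**Figure D1:**
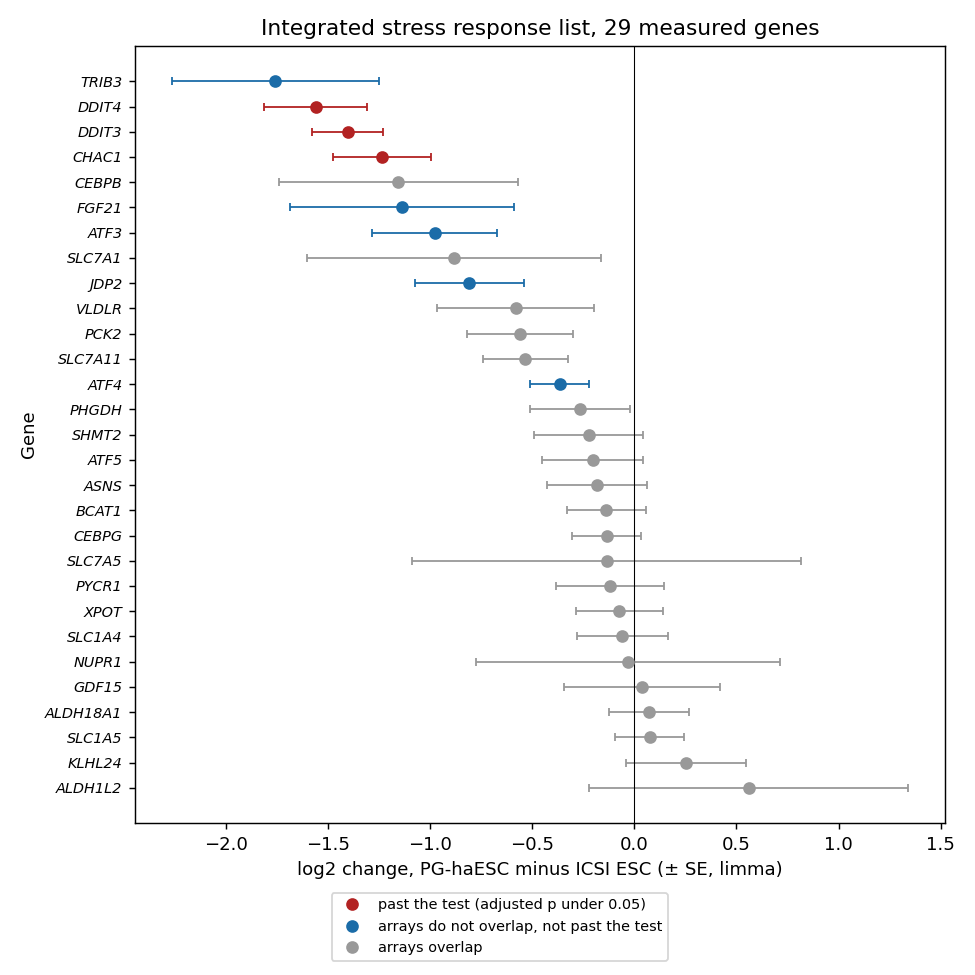
Log2 change (PG-haESC minus ICSI ESC, with its standard error from limma) of the 29 measured genes of the integrated stress response list, ordered by change. DDIT4, DDIT3 and CHAC1 passed the test and lay between -1.56 and -1.23, TRIB3 had -1.76 with a wider error, and the enzymes ASNS, PHGDH, SHMT2 and BCAT1 lay near 0.

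Neighbouring stress and nutrient lists had few such members. Of 11 cytosolic tRNA synthetases, which load amino acids and only some of which are ATF4 targets, none was called and the median was -0.14. YARS1 had -0.71 ± 0.19 (adjusted p = 0.19), while HARS1 had 0.80 ± 0.19 (adjusted p = 0.11). Neither gene's groups overlapped (autosomal background 3.34% lower and 3.48% higher). Only 1 of the 2 tested probe sets of HARS1 had a change above 0, and its change was as low as 0.38 under the other settings. Of 18 genes for chaperones and degradation of the endoplasmic reticulum (median -0.05), HERPUD1, which helps degrade misfolded protein, had -0.94 ± 0.19 (adjusted p = 0.054), and XBP1, the factor of the unfolded protein response, -0.38 ± 0.15 (adjusted p = 0.53). Both had all haploid arrays below all ICSI ESC arrays (autosomal background 3.34%). HERPUD1 gave 1598, 1416, 1764 and 1763 in MPH1, 2217 in MPH2 and 4046, 3555 and 2853 in ICSI ESCs, and it passed the test under 7 of the 23 other settings. DERL1, also a degradation gene of this list, had 0.25 ± 0.17 (adjusted p = 0.89).

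Of 19 amino acid transporter genes, SLC6A15 alone was called (all genes tested 0.574%). It carries branched-chain and other neutral amino acids and gave 232, 285, 336 and 208 in MPH1, 192 in MPH2 and 607, 815 and 820 in ICSI ESCs, with no overlap (-1.65 ± 0.30, adjusted p = 0.039), and lost its call under 13 of the 23 other settings. The list's median was -0.06. The cystine transporter SLC7A11 had -0.53 ± 0.21 (adjusted p = 0.53), and the X-linked arginine transporter SLC7A3 0.63 ± 0.32 (adjusted p = 0.75). Lists of heat shock genes (9 measured, median 0.01), p53 targets (19, median -0.08) and NRF2 targets (9, median 0.19) had no called gene. The smallest p of these belonged to FTL, the ferritin light chain (0.98 ± 0.25, adjusted p = 0.15), followed by GADD45A of the p53 list (-0.39 ± 0.16, adjusted p = 0.59), and HSP90AA1 of the heat shock list had -0.61 ± 0.36 (adjusted p = 0.85).

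The other 3 autosomal genes that fell shared no list. ZNF385B, a zinc finger gene on chromosome 12, gave 334, 191, 244 and 294 in MPH1, 106 in MPH2 and 828, 719 and 999 in ICSI ESCs. Its fall of 2.10 ± 0.41 on the log2 scale was called narrowly (adjusted p = 0.048), and it lost the call under 17 of the 23 other settings, including without MES1 (adjusted p = 0.058). The other tested probe set of ZNF385B had -1.61 ± 0.75 (adjusted p = 0.68). There the groups overlapped, with MES1 at 133.5 and the haploid arrays at 41.75 to 175.9. PDLIM1, an actin-associated PDZ and LIM domain protein, gave 802, 1083, 1136 and 881 in MPH1, 1403 in MPH2 and 2497, 2112 and 2783 in ICSI ESCs (-1.17 ± 0.22, adjusted p = 0.041). C1H1orf115 gave 1015, 919, 1029 and 1114 in MPH1, 1500 in MPH2 and 3113, 2279 and 2453 in ICSI ESCs (-1.17 ± 0.20, adjusted p = 0.028). PDLIM1 lost its call under 14 and C1H1orf115 under 12 of the 23 other settings. For both the MPH2 array was the highest of the haploid arrays and still below the lowest ICSI ESC array.

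PCDH8 had the largest rise. It encodes a protocadherin, a cell adhesion molecule known from paraxial mesoderm and synapses, and it lies on chromosome 17. It gave 12724, 6037, 16529 and 3687 in MPH1, 2270 in MPH2 and 248, 145 and 145 in ICSI ESCs, and 27.3 and 23.0 on the fibroblast arrays. The lowest haploid array was above the highest ICSI ESC array, although haploid arrays varied widely among themselves, and the rise was 31.6-fold (4.98 ± 0.63, adjusted p = 0.0080). It kept its call under 20 of the 23 other settings. Of the 9 measured protocadherin and cadherin genes, PCDH8 alone was called (all genes tested 0.574%). PCDH10, a neural protocadherin, had 1.59 ± 0.85 (adjusted p = 0.79), with all haploid arrays above the ICSI ESC arrays. The epithelial cadherin gene CDH1 was dim on all ICSI ESC arrays and at least 1.02-fold higher (adjusted p = 0.77).

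VTCN1, a ligand that restrains T cells and is made in placenta and amnion, was second. It gave 2208, 1472, 1518 and 1137 in MPH1, 543 in MPH2 and 254, 113 and 102 in ICSI ESCs, a rise of 2.95 ± 0.57 (7.71-fold, adjusted p = 0.048). VTCN1 lost its call under 10 of the 23 other settings. KLK7, a serine protease of the shedding outer skin, gave 1401, 1207, 1306 and 708 in MPH1, 898 in MPH2 and 286, 428 and 282 in ICSI ESCs (1.68 ± 0.28, adjusted p = 0.028). KLK7 lost its call under 9 of the 23 other settings. Its level on the arrays labelled fibroblast was far higher (40962 and 39569), as for the rest of the keratinocyte list, and the part of such cells in its signal was not tested. KLK5, its partner protease, was dim on all ICSI ESC arrays and at least 2.44-fold higher (adjusted p = 0.11), the dim side being set to each array's median signal. No other gene of the 15 on the keratinocyte list was called (all genes tested 0.574%), 8 of the 15 had a change above 0, and the median was 0.04. KRT10, a keratin of differentiated epidermis, had -0.37 ± 0.16 (adjusted p = 0.61), and LORICRIN was at or below the array median on all 8 stem cell arrays.

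The genes ATP6V1D, NUDT7, SRBD1 and RAB40B also rose and belonged to none of the lists. ATP6V1D, a subunit of the vacuolar proton pump, gave 2155, 2440, 1945 and 1825 in MPH1, 1951 in MPH2 and 872, 1108 and 914 in ICSI ESCs (1.09 ± 0.18, adjusted p = 0.024). NUDT7, a peroxisomal enzyme that cleaves coenzyme A, gave 599, 529, 728 and 447 in MPH1, 545 in MPH2 and 180, 211 and 211 in ICSI ESCs (1.48 ± 0.25, adjusted p = 0.025). Haploid arrays of both genes were tightly grouped and clear of the ICSI ESC arrays. SRBD1, which has an S1 RNA-binding domain, gave 2905, 2142, 2043 and 2885 in MPH1, 2986 in MPH2 and 1192, 1168 and 1044 in ICSI ESCs (1.21 ± 0.20, adjusted p = 0.025). RAB40B, a small GTPase, gave 916, 931, 1063 and 724 in MPH1, 596 in MPH2 and 284, 359 and 363 in ICSI ESCs (1.25 ± 0.24, adjusted p = 0.048). RAB40B lost its call under 14 of the 23 other settings, SRBD1 under 8, and ATP6V1D and NUDT7 under 7 each.

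For 4 further genes that rose, the other probe sets had smaller changes or, in ABCA8, changes of both signs. SPAST, the microtubule-severing spastin, gave 4543, 5079, 3858 and 4992 in MPH1, 3984 in MPH2 and 2077, 1927 and 1975 in ICSI ESCs on its brightest probe set (1.14 ± 0.16, adjusted p = 0.017), while its other probe sets had 0.24 and 0.45. KNOP1, a nucleolar protein, gave 6155, 5894, 5161 and 4796 in MPH1, 5237 in MPH2 and 2215, 1890 and 1984 in ICSI ESCs (1.41 ± 0.15, adjusted p = 0.0055), while its other probe sets had 0.57, 0.12 and 0.16. AKT1, a kinase of growth and survival, gave 1505, 1315, 952 and 828 in MPH1, 1212 in MPH2 and 352, 425 and 393 in ICSI ESCs (1.56 ± 0.27, adjusted p = 0.031) against 0.18 ± 0.24 on its other probe set. None of these 3 was called when all probe sets of a gene were averaged (SPAST 0.61, KNOP1 0.57 and AKT1 0.87). The transporter gene ABCA8 (1.96 ± 0.36, adjusted p = 0.039) was called on 1 of 4 probe sets and lay at 0.65 when they were averaged. The last gene that rose, the leucine-rich repeat gene LRRC63, had 1.46 ± 0.26 (adjusted p = 0.039). Its other probe set had 0.86 ± 0.27 (adjusted p = 0.31), with haploid arrays at 257 to 287 and ICSI ESC arrays at 117 to 189 and no overlap. ABCA8 lost its call under 14 of the 23 other settings, LRRC63 under 13, AKT1 under 10, SPAST under 6 and KNOP1 under 4.

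**Figure D2:**
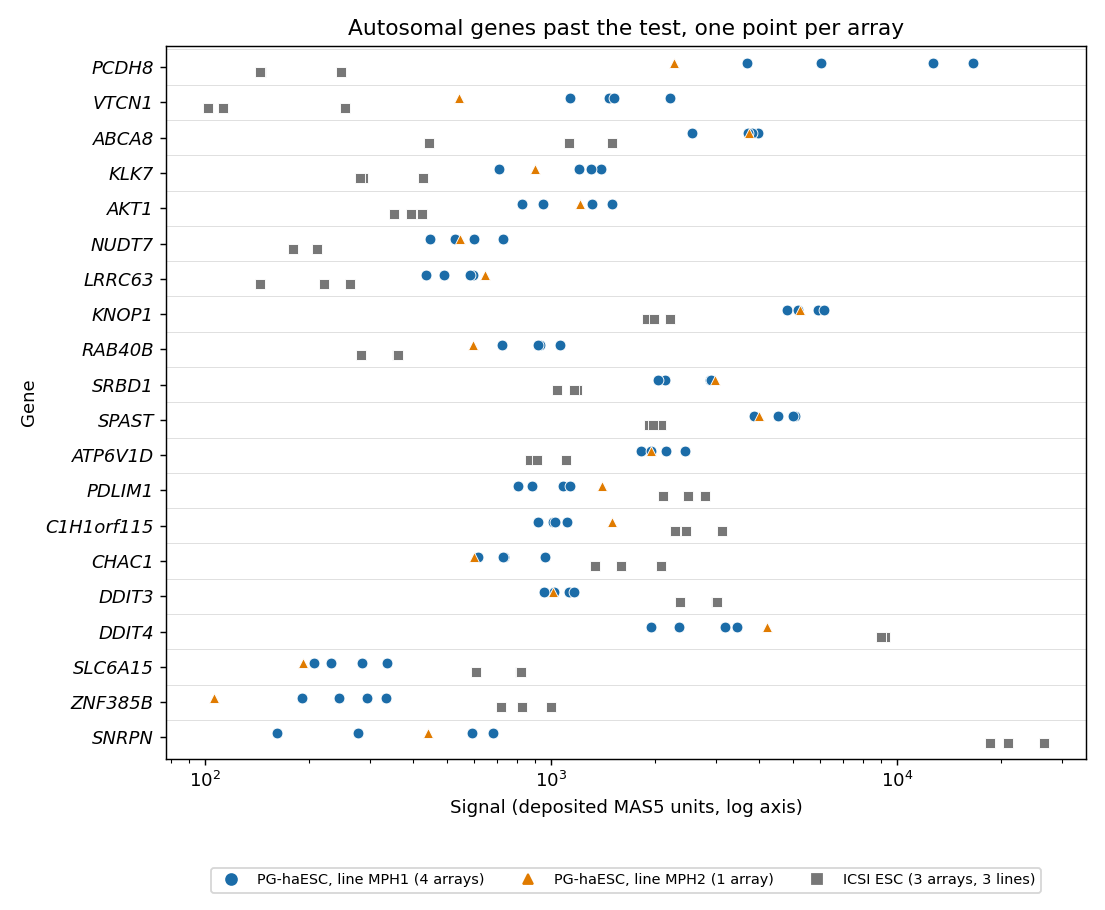
Deposited signal, on a log axis, of the 20 autosomal genes past the test, with 1 point per array: circles for line MPH1 (4 arrays), triangles for line MPH2 (1 array) and squares for ICSI ESCs (3 arrays). The genes are ordered by log2 change from PCDH8 (4.98) to SNRPN (-5.81). In each gene the haploid arrays lie on 1 side of the ICSI ESC arrays, and the MPH2 triangle lies on the same side as the MPH1 circles. The genes were called on these same arrays, which favours such a separation.

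Both haploid lines had the same direction in all 20 genes. The genes were called on these same arrays, MPH2 included, so the shared direction is no independent evidence. Without the MPH2 array 14 of the 20 kept their call. The change was smaller in MPH2 than in MPH1 for 8 of the 12 genes that rose and 4 of the 8 that fell, with VTCN1 at 3.42 in MPH1 and 1.92 in MPH2 and ZNF385B at -1.69 and -2.98. No 2 of the 20 were neighbours on a chromosome among measured genes. Over all autosomal genes, arrays did not overlap between groups for 6.83%, 355 of them higher (3.48%) and 341 lower, so a lack of overlap alone marks many genes that were not called. Of the 20 genes, 8 belonged to a list described here and 12 to none.

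Lineage genes varied widely among arrays and lines, and VTCN1 was the 1 called gene of the 4 lineage lists that follow. BMP ligands and targets had a median log2 change of 0.43 over 13 genes, with none called. BMP4, the ligand that drives amnion and mesoderm in the early embryo, gave 881, 593, 775 and 637 in MPH1, 1116 in MPH2 and 392, 350 and 289 in ICSI ESCs. All haploid arrays were above all ICSI ESC arrays, and BMP4 narrowly missed the test (1.27 ± 0.26, adjusted p = 0.063), passing it under 6 of the 23 other settings. Its target ID1, an inhibitor of differentiation factors, gave 8250, 4308, 9612 and 2800 in MPH1, 14855 in MPH2 and 3889, 2531 and 2617 in ICSI ESCs, with overlap (1.36 ± 0.50, adjusted p = 0.47). The signal transducer SMAD5 had 0.42 ± 0.16 (adjusted p = 0.53) and the homeobox target MSX2 0.85 ± 0.35 (adjusted p = 0.58). Of the 13 genes, 9 had a change above 0 and 4 below. Those below included the ligand gene BMP2 (-1.13 ± 0.66, adjusted p = 0.84) and GREM1 (-1.27 ± 1.12, adjusted p = 0.94), named after their values were seen. The list's median was 0.34 in MPH1 and 1.17 in MPH2, 0.64 with arrays averaged per line and 0.87 without the arrays of highest spike-in signal.

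Trophoblast and amnion genes, many of which respond to BMP, had a median of 0.98 over 15 genes, VTCN1 being the 1 called (all genes tested 0.574%). The median was 0.60 without the MPH2 array and 1.58 without the arrays of highest spike-in signal. TFAP2A, a transcription factor of trophoblast and surface ectoderm, gave 919, 183, 1279 and 394 in MPH1, 3367 in MPH2 and 754, 133 and 130 in ICSI ESCs (2.04 ± 0.92, adjusted p = 0.66). IGFBP3, a binder of insulin-like growth factors, gave 1303, 1197, 1244 and 576 in MPH1, 4524 in MPH2 and 715, 430 and 364 in ICSI ESCs (1.77 ± 0.53, adjusted p = 0.27). MPH2 was the highest array for both genes and MES1 the highest ICSI ESC array. TFAP2A and IGFBP3 were also bright on the arrays labelled fibroblast (11787 and 11329, and 4887 and 5375), which carry keratinocyte genes too, and the part of other cells in their signal was not tested. The keratin gene KRT18 had -0.67 ± 0.33 (adjusted p = 0.74).

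Endoderm genes had the lowest list median, -1.65 over 15 genes, with none called and no gene whose groups lay apart. FOXA1, a pioneer factor of gut endoderm, gave 154, 196, 143 and 369 in MPH1, 76.4 in MPH2 and 494, 1415 and 333 in ICSI ESCs (-2.06 ± 0.59, adjusted p = 0.23). SOX17, the factor of definitive endoderm, gave 364, 524, 58.4 and 1724 in MPH1, 73.2 in MPH2 and 857, 5070 and 1082 in ICSI ESCs (-2.91 ± 1.16, adjusted p = 0.56). The node gene GSC followed the same arrays (-2.93 ± 1.17, adjusted p = 0.56), with 110 to 2831 in MPH1, 94.8 in MPH2 and 1274 to 5070 in ICSI ESCs. PRDM1 had -1.90 ± 0.70 (adjusted p = 0.47). For SOX17, GSC and PRDM1 the passage 11 array of MPH1 was within the range of the ICSI ESC arrays, and MES2 was the highest array. The list's median was -0.99 in MPH1, which is also its value without the MPH2 array, and -2.35 in MPH2.

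Primitive streak and mesoderm genes were split, with a median of 0.01 over 15 genes. TBXT (brachyury), the streak factor, had -3.11 ± 1.16 (adjusted p = 0.48) and ran from 27.1 to 584 in MPH1, at 14.8 in MPH2 and from 365 to 808 in ICSI ESCs, while BMP4 and MSX1 (1.06 ± 0.49, adjusted p = 0.68) had values above 0. Nodal and activin genes, which hold primed stem cells and drive endoderm, had a median of -0.02 over 14 genes. Their signal transducer SMAD3 gave 486, 757, 675 and 772 in MPH1, 666 in MPH2 and 1363, 925 and 1382 in ICSI ESCs, with no overlap (-0.86 ± 0.24, adjusted p = 0.21), and NODAL had -1.11 ± 0.75 (adjusted p = 0.89). None of either list was called.

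**Figure D3:**
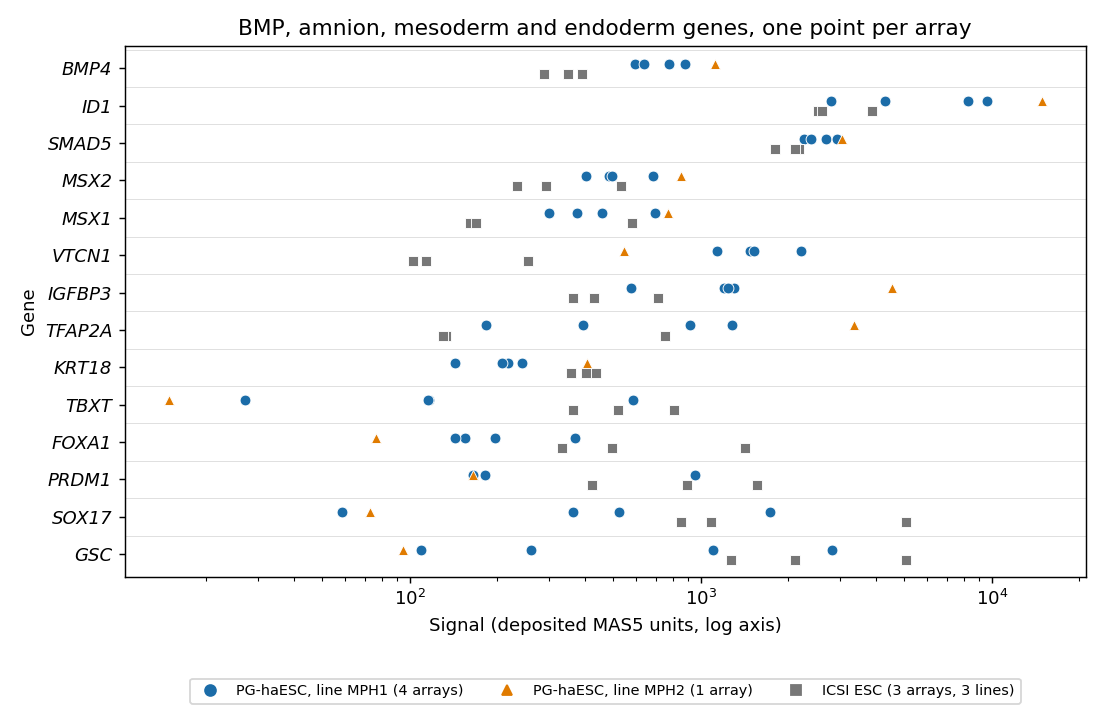
Deposited signal, on a log axis, of the members with the smallest p of the BMP, trophoblast and amnion, mesoderm and endoderm lists, with 1 point per array: circles for line MPH1 (4 arrays), triangles for line MPH2 (1 array) and squares for ICSI ESCs (3 arrays). The MPH2 array is the highest for BMP4, ID1, MSX2, TFAP2A and IGFBP3 and the lowest for TBXT, FOXA1 and GSC, and the MPH1 arrays spread widely for SOX17 and GSC.

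Other signalling lists had no called gene either. FGF and ERK feedback genes (15 measured, median -0.17) included the phosphatase gene DUSP5 (-0.96 ± 0.28, adjusted p = 0.24) and the inhibitor gene SPRED2 (-0.70 ± 0.22, adjusted p = 0.30). Both had haploid arrays entirely below (autosomal background 3.34%). WNT targets (13, median -0.37) included RNF43, which removes WNT receptors (0.89 ± 0.21, adjusted p = 0.11), and DKK4 (-2.93 ± 1.02, adjusted p = 0.42). YAP targets (11, median -0.41) had 10 of 11 changes below 0, led by the junction protein gene AMOTL1, which gave 1175, 931, 1028 and 1420 in MPH1, 1522 in MPH2 and 2045, 2863 and 3796 in ICSI ESCs (-1.18 ± 0.25, adjusted p = 0.066). AMOTL1 passed the test under 8 of the 23 other settings. The interferon list (19, median 0.25) had IFI27 at 1.12 ± 0.36 (adjusted p = 0.34).

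None of the 13 core pluripotency genes was called (median 0.16). SOX2 gave 17023, 14280, 15719 and 11468 in MPH1, 11690 in MPH2 and 9051, 11208 and 10049 in ICSI ESCs (0.43 ± 0.22, adjusted p = 0.76), and the methyltransferase gene DNMT3B had 0.51 ± 0.20 (adjusted p = 0.57). GDF3 had -1.25 ± 0.73 (adjusted p = 0.84). The 8 naive-state genes had a median of -0.35 (-0.09 in MPH1 and -0.60 in MPH2), with 6 changes below 0 and 2 above. KLF5 had -1.17 ± 0.47 (adjusted p = 0.55) with overlapping groups, and was also bright on the arrays labelled fibroblast (12765 and 13046). The 7 neuroectoderm genes (median 0.84, and 0.47 without the X-linked DCX and SOX3) had 5 changes above 0 and 2 below. POU3F1 was at or below the array median on all ICSI ESC arrays and 4 of 5 haploid arrays (adjusted p = 0.28). DCX, dim in ICSI ESCs, was at least 3.38-fold higher (adjusted p = 0.15), while ZIC2, bright on all 8 arrays, had -0.86 ± 0.36 (adjusted p = 0.58). The germ cell list (8, median -0.05) had 4 changes above 0 and 4 below. DAZL, an RNA-binding protein of germ cells dim in ICSI ESCs, was at least 1.37-fold higher (adjusted p = 0.27). MAEL was dim on all ICSI ESC arrays and above the array median on 3 of 5 haploid arrays (adjusted p = 0.58). Those below 0 included PRDM1 (-1.90 ± 0.70, adjusted p = 0.47) and NANOS3 (-1.58 ± 1.00, adjusted p = 0.88).

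Cell cycle and growth lists, of interest for cells with a single chromosome set, were close to the autosomal median. G1/S and replication genes (18, median -0.02) had no called gene. Their smallest p was that of the X-linked polymerase gene POLA1 (0.96 ± 0.20, adjusted p = 0.061), while the autosomal helicase gene MCM5 had -0.54 ± 0.23 (adjusted p = 0.61). G2/M and spindle genes (16, median 0.05) had CCNB1, the mitotic cyclin, at 0.39 ± 0.16 (adjusted p = 0.57), and genes of centrosome duplication and the tetraploidy checkpoint (12, median -0.01) had the kinase gene LATS1 at -0.35 ± 0.15 (adjusted p = 0.61). Oxidative phosphorylation (33, median 0.05) and cytosolic ribosomal protein genes (26, median -0.08) had no called gene, with ATP5F1D at -0.54 ± 0.22 (adjusted p = 0.56) and RPL19 at 0.74 ± 0.21 (adjusted p = 0.22). DNA methylation regulators (10, median 0.05) included TET2 at 0.63 ± 0.26 (adjusted p = 0.59), and Polycomb and X-inactivation cofactors encoded on autosomes (12, median -0.02) included HDAC3 at -0.26 ± 0.18 (adjusted p = 0.89).

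Glycolysis genes (15, median -0.05) did not move as a group, but LDHA, which turns pyruvate to lactate, gave 2181, 1906, 3264 and 1902 in MPH1, 2679 in MPH2 and 3386, 10474 and 21722 in ICSI ESCs. The haploid arrays were all lower, yet the ICSI ESC lines differed so much among themselves that the change of -1.94 ± 0.49 was not past the test (adjusted p = 0.14), and it was without MES1 (-2.68, adjusted p = 0.0045). Hypoxia targets (13, median 0.04) included the peptide hormone gene ADM at -1.36 ± 0.34 (adjusted p = 0.15) and PFKFB3, an activator of glycolysis, at 0.85 ± 0.30 (adjusted p = 0.45), each with no overlap and in opposite directions. Cholesterol synthesis genes (16, median -0.07) had the X-linked EBP at 0.63 ± 0.19 (adjusted p = 0.30) and NSDHL at 0.93 ± 0.32 (adjusted p = 0.42), and the autosomal regulator INSIG1 at -1.10 ± 0.42 (adjusted p = 0.52). Without its X-linked members the list's median was -0.12.

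**Figure D4:**
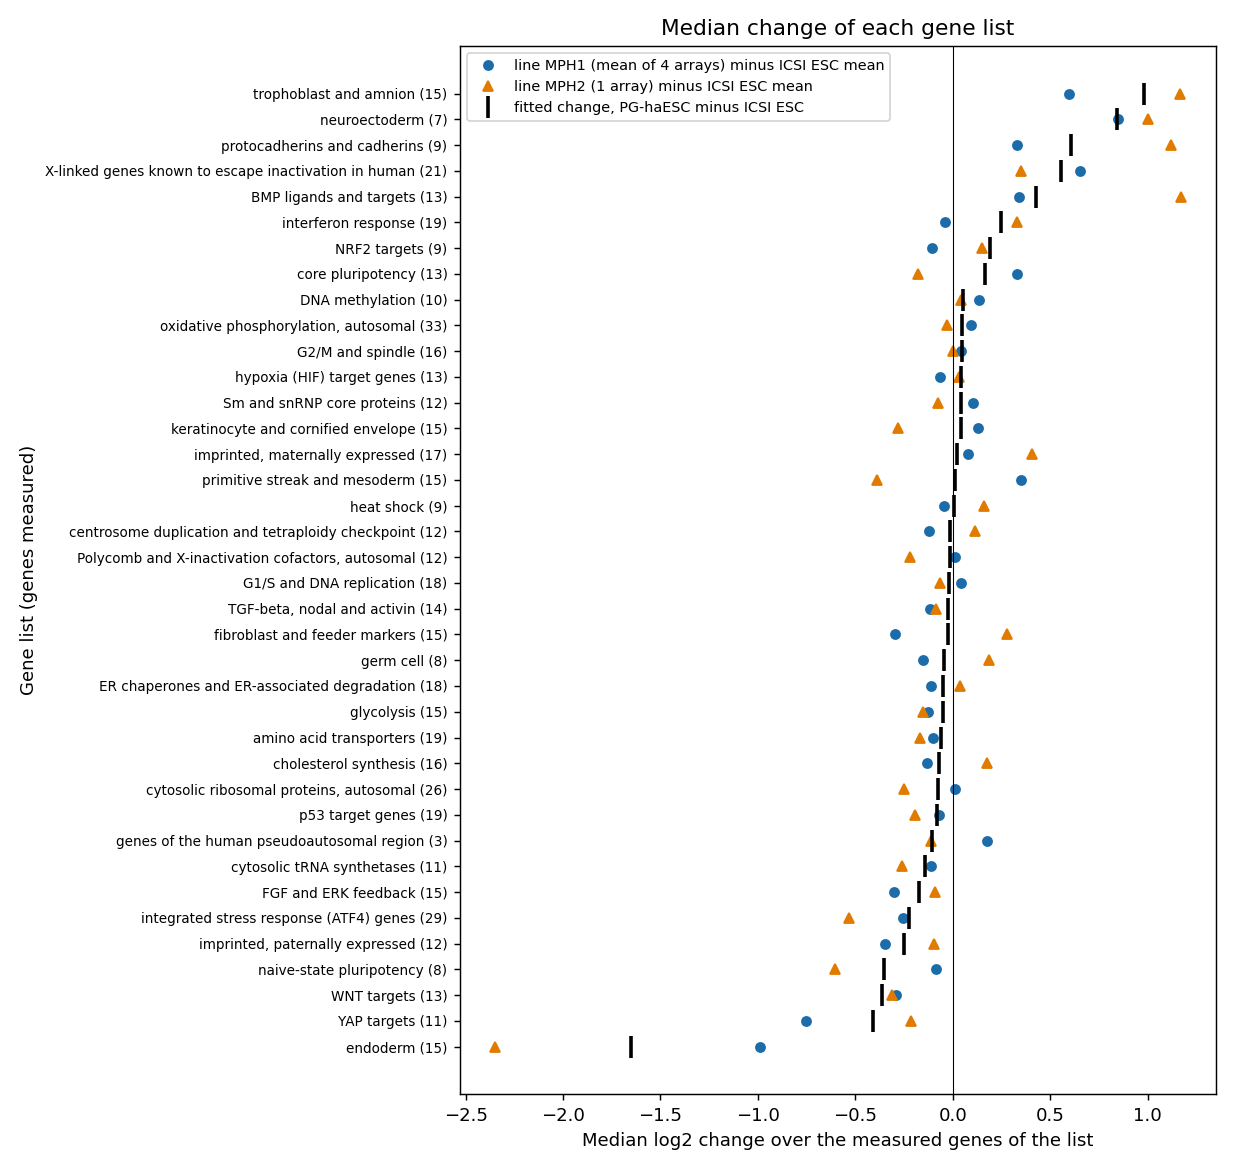
Median log2 change of each of the 38 gene lists, with the number of measured genes in brackets: black bars for the fitted change (PG-haESC minus ICSI ESC), circles for line MPH1 and triangles for line MPH2, each minus the ICSI ESC mean. Endoderm genes lie lowest (-1.65) and trophoblast and amnion genes highest (0.98), with MPH2 farther from 0 than MPH1 in both, while most lists of housekeeping and cell cycle genes lie near 0.

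Of the 38 lists, 31 had no called gene. Leaving aside the X-linked and pseudoautosomal lists, 27 of 36 had a median within 0.25 of 0 over their autosomal and unplaced genes. The medians of MPH1 and MPH2 had opposite signs in 17 of the 36, where most medians were near 0.

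The X chromosome was the exception to this balance. Its median log2 change was 0.67 (1.59-fold), with 87.6% of genes above 0 and 90 of 380 at least 2-fold higher, while the medians of single autosomes lay between -0.08 and 0.05. Set against the ICSI ESC mean and each array's autosomes, the X-linked genes were higher by 0.79, 0.71, 0.58 and 0.67 in MPH1 and by 0.76 in MPH2, and lay between -0.05 and 0.07 in single ICSI ESC lines. No autosome moved so on any array, the extremes being 0.13 (chromosome 5, passage 7 of MPH1) and -0.11 (chromosome 19, MPH2). The ICSI ESC arrays make up the mean used here, which draws their own values towards 0. Without that reference, the median log2 signal of X-linked minus autosomal genes was 0.56 to 0.87 on haploid arrays and -0.16 to 0.03 on ICSI ESC arrays. The series text mentions female individuals in a phrase on both controls, and it is not clear whether that covers the ICSI ESC lines, so the number of X chromosomes in those lines is not known here.

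**Figure D5:**
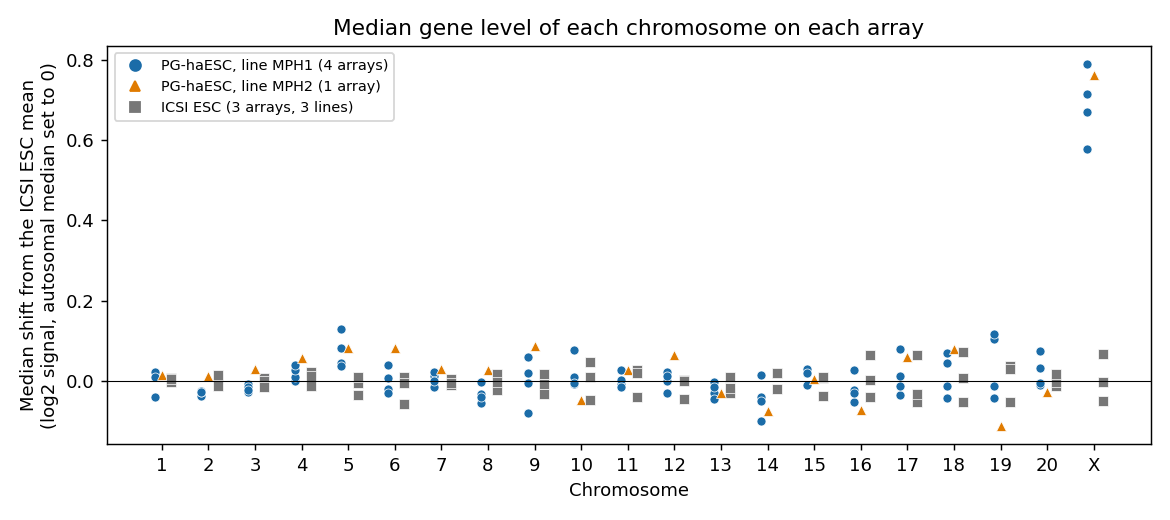
Median difference of the genes of each chromosome from the ICSI ESC mean (log2 signal), after each array's autosomal median was set to 0, with 1 point per array: circles for line MPH1 (4 arrays), triangles for line MPH2 (1 array) and squares for ICSI ESCs (3 arrays). The 5 haploid arrays lie between 0.58 and 0.79 on the X chromosome, and all arrays lie between -0.11 and 0.13 on the autosomes.

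The rise held along the whole chromosome. In 10 runs of 38 neighbouring X-linked genes the median change ran from 0.54 (CASK to WDR45) to 0.92 (GPC3 to NSDHL), and each run held at least 1 called gene. By brightness the medians were 0.52, 0.73 and 0.70 in the dimmest, middle and brightest of 3 equal parts. Single X-linked genes that were called rose 1.75-fold to 3.78-fold. The 10 with the largest fold were FHL1 (1.92 ± 0.37), KLHL13 (1.82 ± 0.31), SEPTIN6 (1.77 ± 0.32), ALG13 (1.71 ± 0.20), MAGEH1 (1.66 ± 0.26), MTM1 (1.53 ± 0.25), PIGA (1.36 ± 0.23), GPC3 (1.34 ± 0.22), SMS (1.34 ± 0.15) and ARMCX4 (1.32 ± 0.25). FHL1 is a LIM domain protein, KLHL13 an adaptor of a ubiquitin ligase, SEPTIN6 a cytoskeletal GTPase, MTM1 a lipid phosphatase, GPC3 a heparan sulphate proteoglycan and PIGA an enzyme of GPI anchors. GPC3 had -0.13 when its probe sets were averaged, so its rise rests on the brighter one.

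The spermine synthase gene SMS and ALG13, which helps start glycosylation, had the smallest p-values on the X chromosome. SMS gave 12573, 11640, 11718 and 10756 in MPH1, 9270 in MPH2 and 3949, 4559 and 4393 in ICSI ESCs (adjusted p = 0.0055). ALG13 gave 9239, 8096, 7411 and 5642 in MPH1, 7046 in MPH2 and 1930, 2434 and 2389 in ICSI ESCs (adjusted p = 0.0055). For both, the lowest haploid array was well above the highest ICSI ESC array, and each kept its call under 20 of the 23 other settings.

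Genes known to escape X inactivation in human are expressed from both X chromosomes of a female cell. Of 21 measured, ALG13 alone was called (X-linked background 9.47%) and 20 had a change above 0. Haploid arrays lay entirely above for 10, a share close to the X-linked background (47.1%, and 0.263% entirely below). Their median was 0.56 against 0.69 for the other 359 X-linked genes, a difference that was not tested. CTPS2, which makes CTP, had 1.03 ± 0.24 (adjusted p = 0.11), the chromatin gene RBBP7 0.70 ± 0.18 (adjusted p = 0.16), the Mediator gene MED14 0.78 ± 0.21 (adjusted p = 0.19) and the cohesin gene SMC1A 1.68 ± 0.50 (adjusted p = 0.27). For SMC1A the MES1 array lay far below the others (860, against 5412 and 4796 for MES2 and MES3 and 8002 to 10550 in PG-haESCs). Of the human pseudoautosomal region, shared by X and Y, 3 genes were measured and none was called. CD99 had 0.66 ± 0.42 (adjusted p = 0.88), with 7648 in MPH2 and 2309 to 3326 in MPH1, GTPBP6 had -0.56 ± 0.45 (adjusted p = 0.93) and AKAP17A -0.11 ± 0.28 (adjusted p = 0.99), the last changing sign under other settings.

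The 11 called genes without a chromosome rose by 0.76 to 1.90 on the log2 scale, within the range of the called X-linked genes or just below it. NAP1L2, a histone chaperone gene, gave 782, 482, 632 and 534 in MPH1, 879 in MPH2 and 274, 179 and 177 in ICSI ESCs (1.72 ± 0.28, adjusted p = 0.025). MAGED4B, of the MAGE family, gave 3262, 3005, 3073 and 2630 in MPH1, 3001 in MPH2 and 1894, 1468 and 1403 in ICSI ESCs (0.92 ± 0.17, adjusted p = 0.040). Both genes are X-linked in human. The other 9 carried only a locus number as a name, with log2 changes of 1.90 for LOC714113, 1.35 for LOC704147, 1.28 for LOC706686, LOC695959 and LOC697805, 1.18 for LOC697452, 1.12 for LOC705614, 1.01 for LOC696024 and 0.76 for LOC711626 (adjusted p from 0.022 to 0.039). As a called gene outside the 20 may lie on an autosome, the autosomal number is that of placed genes.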

How the data were processed

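RNA of 10 samples was hybridised to Affymetrix Rhesus Macaque arrays, 1 array each. The authors deposited signal intensity on a linear scale, computed with MAS5 per the submitters' processing notes, which name no version. The table held 52865 probe sets and no detection calls. Arrays shared the same mean of signals between their 2nd and 98th percentiles. After leaving out 158 control probe sets, 34139 above their array's median on at least 2 arrays were tested.

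The log2 of the deposited signal was fitted with limma 3.58.1 in R 4.3.3: group means of all 10 arrays, line as a random block (correlation 0.29), a variance trend, two-sided tests, Benjamini-Hochberg adjustment. Symbols came from the supplied probe annotation and chromosomes from RefSeq's T2T-MFA8v1.1 (89.0% of symbols matched). Where a gene was at or below the array median on every array of its dimmer group, the fold is a lower bound taken against those medians.

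Groups and lines came from the labels. Members, the 38 gene lists and tests were chosen with earlier results of these data known. The text names all called autosomal and unplaced genes, the 10 called X-linked genes of largest fold, up to 4 genes per list by smallest p, and further stress, BMP, imprinted and pseudoautosomal genes. The other settings, 22 in number, covered line handling, offset, normalization, filters, variance, passage, probe set averaging and each array left out; 1, without the 2 arrays of highest spike-in signal, was added after seeing the data. The method was also run on simulated data. These had normal noise and no array standing apart, so they cannot show how single arrays move the calls. Figures were drawn with matplotlib 3.10.9. The number of arrays limits precision.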

Additional observations from a re-analysis of the deposited data

Results flagged for a closer look

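Of 125 genes examined over the 5 PG-haESC arrays, 6 had an array far from the other 4, where chance flags about 1 in 20. On the passage 11 array of MPH1, ABCA8 (2556) and SEPTIN6 (1328) were low and KLF5 (2672) and PRDM1 (952) high. FTL was high in MPH2 (2348), and MED14 was high at passage 7 of MPH1 (2743).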

How the results depend on the processing

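Calls numbered 154 probe sets, 20 autosomal genes (8 lower) and 36 X-linked genes. In this order they were 475, 95 (41) and 89 with arrays as independent samples, 9, 1 (1) and 0 with arrays averaged per line, 84, 12 (4) and 15 with only the 8 arrays compared, 14, 2 (1) and 0 with arrays centred on their medians, 13, 2 (1) and 1 with no variance trend, 287, 44 (20) and 68 with passage as a covariate, and 431, 102 (43) and 64 without the 2 arrays of highest spike-in signal. Probe sets and autosomal genes numbered 256 and 39 (15) with the description code as the block and 102 and 12 (4) with the 75th percentile filter, and autosomal genes 31 (13) with no filter. Leaving out each array gave 8 to 393 probe sets, 2 to 90 autosomal genes (1 to 41 lower) and 2 to 61 X-linked genes. After centring, 21.4% of called probe sets were higher, against 81.2%. The cause of these shifts was not tested. The X-linked median ran from 0.62 to 0.72 over all 23 alternatives.

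Signs changed for AKAP17A, NDN, LATS1 and GPC3. AKAP17A ran from -0.21 to 0.18 with single arrays left out. It had 0.00048 with independent samples, 0.093 without the arrays of highest spike-in signal, and above 0 without MES1 (0.096) or MPH2. NDN had 0.001 with quantile normalization, 0.037 after centring, 0.017 with passage, 0.0084 without the arrays of highest spike-in signal, and -0.087 to 0.075 with single arrays left out, above 0 without passage 11 of MPH1, MPH2, MES2 or MES3. With the mean of all probe sets LATS1 had 0.0069 and GPC3 -0.13. No paired analysis was possible because replicate numbers only name arrays. Signal near the array median limits dim genes.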
